A study of Rattus norvegicus with 12 samples.

Results

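The genes described here encode lysosomal hydrolases and lysosomal membrane proteins: 39 listed genes, of which 36 had at least 1 spot on the array under that name, 59 spots in all, out of 14871 genes measured. The list was drawn up by gene name, with earlier results of these data known, and its rule uses no measured value. Naglu, Idua and Ids had no spot listed under these names and were not analysed here. The 36 genes comprise 9 cathepsins, 10 glycosidases, 7 membrane proteins, 2 sulfatases, 4 lipid and acyl hydrolases, the tripeptidyl peptidase gene Tpp1, the precursors Psap and Grn, and the transcription factor gene Tfeb.

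The axotomized samples were organotypic slices of entorhinal cortex and of hippocampus grown together, labelled rat and wild type, in which the entorhino-hippocampal pathway was cut after 15 days in vitro and which were then kept for 1, 3 or 7 days. Their controls were uncut co-cultures of the same origin and medium, harvested alongside the cut ones. Each day had 2 biological replicates, each hybridized to 2 two-colour Agilent arrays with the dyes exchanged, 12 arrays in all. The labels give Rattus norvegicus as the species but speak of mice in the treatment protocol, a conflict not settled here, and no label used here states the age of the animals or what a biological replicate consists of (a culture, an animal or a pool).

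Each value is the log2 of axotomized over non-axotomized signal, averaged over the spots of a gene and over the dye-swapped arrays of a replicate. This direction is likely, as read from titles and channel order, and is not stated; with the opposite direction every sign turns. Errors are given as SDs over the 2 replicates of a day (n = 2) unless called SE, and p-values measure only the spread between these samples, which may be technical. The table holds ratios and no signal intensities, so levels, dim spots and the presence of the labelled tissue's markers could not be assessed. A slice holds neurons, astrocytes, oligodendrocytes and microglia together, and a lower ratio from fewer cells of a type cannot be told apart from less RNA per cell. The median ratio of all genes was 0.01, 0.01 and 0.00 at days 1, 3 and 7.

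Lysosomes are the acidic compartments in which cells break down protein, glycans and lipids taken up from outside or delivered by autophagy. Soluble hydrolases do the digestion: cathepsins cut proteins, glycosidases trim sugars from glycoproteins and glycolipids, and the membrane proteins bound the compartment and carry its channels and transporters. In brain, microglia and macrophages are rich in lysosomes and clear the debris of degenerating axons, and inherited loss of many of these hydrolases causes neuronal storage disease. The transcription factor TFEB, characterised in human cells, activates many lysosomal genes through an element built around the E-box CACGTG.

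Promoter windows were printed for the members that passed a test (Ctsd and Fuca1) and for a pair of membrane protein genes with repeated E-boxes (Lamp1 and Mcoln1), to show which of them carry that element. The sequences are from RefSeq on the build GRCr8 and run 5′ to 3′ from 250 bases before to 50 bases after the start that table uses, and capitals mark CACGTG, which reads the same on both strands. The Ctsd window lies at chr1:206968772-206969071 on the minus strand and the Fuca1 window at chr5:153436012-153436311 on the plus strand, each at the outer end of the annotated gene. The Lamp1 window lies at chr16:83075014-83075313 on the minus strand and the Mcoln1 window at chr12:6358008-6358307 on the plus strand, both inside the annotated gene.
Ctsd: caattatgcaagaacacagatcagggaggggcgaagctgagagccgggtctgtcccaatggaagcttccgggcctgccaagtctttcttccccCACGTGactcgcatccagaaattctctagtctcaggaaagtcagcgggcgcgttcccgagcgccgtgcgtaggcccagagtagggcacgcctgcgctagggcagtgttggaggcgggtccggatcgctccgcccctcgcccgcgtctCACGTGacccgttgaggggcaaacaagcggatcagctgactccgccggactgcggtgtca
Fuca1: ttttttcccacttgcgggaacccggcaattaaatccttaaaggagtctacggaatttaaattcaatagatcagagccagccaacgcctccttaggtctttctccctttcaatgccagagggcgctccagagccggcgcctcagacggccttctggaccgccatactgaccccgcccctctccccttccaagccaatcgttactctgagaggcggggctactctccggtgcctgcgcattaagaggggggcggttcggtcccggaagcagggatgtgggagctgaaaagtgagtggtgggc
Lamp1: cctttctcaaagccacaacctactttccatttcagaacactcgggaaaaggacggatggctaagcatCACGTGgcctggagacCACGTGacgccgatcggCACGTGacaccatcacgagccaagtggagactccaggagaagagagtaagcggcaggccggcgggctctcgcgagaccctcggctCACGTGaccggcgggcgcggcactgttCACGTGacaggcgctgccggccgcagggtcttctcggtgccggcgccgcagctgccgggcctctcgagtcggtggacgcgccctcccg
Mcoln1: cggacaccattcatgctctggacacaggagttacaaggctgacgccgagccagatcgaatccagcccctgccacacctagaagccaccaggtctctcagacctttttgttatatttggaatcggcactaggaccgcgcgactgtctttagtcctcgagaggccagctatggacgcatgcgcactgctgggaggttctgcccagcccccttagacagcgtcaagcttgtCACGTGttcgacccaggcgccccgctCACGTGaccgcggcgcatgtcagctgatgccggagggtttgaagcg

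In the Ctsd window CACGTG began 157 and 10 bases before the start, in Lamp1 it occurred 5 times, at 183, 167, 150, 65 and 38 bases before it, in Mcoln1 at 22 bases before and 4 bases after it, and the Fuca1 window held none. RefSeq windows were found for 29 of the 36 measured members, not for Arsa, Arsb, Asah1, Ctsb, Hexa, Ppt1 and Psap. In 16 of these 29 windows the start used was the outer end of the annotated gene. CACGTG was in 8 of these 29 windows (27.6%), against 6.42% of all 33469 promoter windows and 7.93% of those of genes with a spot. Of those 8, the windows of Cd63, Cln3, Gaa, Galc, Lamp1 and Mcoln1 used a start other than that outer end. The longer palindrome TCACGTGA, which contains CACGTG and is the inner part of the TFEB element, was in 5 of 29 (Cln3, Ctsd, Galc, Lamp1 and Mcoln1). That is 17.2%, against 0.777% of all windows and 1.25% of those of genes with a spot. Among 56 windows of other lysosomal genes with a spot, 10.7% held TCACGTGA. Members with and without it overlapped in their ratios: at day 7 the median log2 ratio was -0.02 over the 5 genes that have it, with a range of -0.33 to 0.04, and -0.04 over the 21 genes with no CACGTG, with a range of -0.43 to 0.06.

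**Figure D1:**
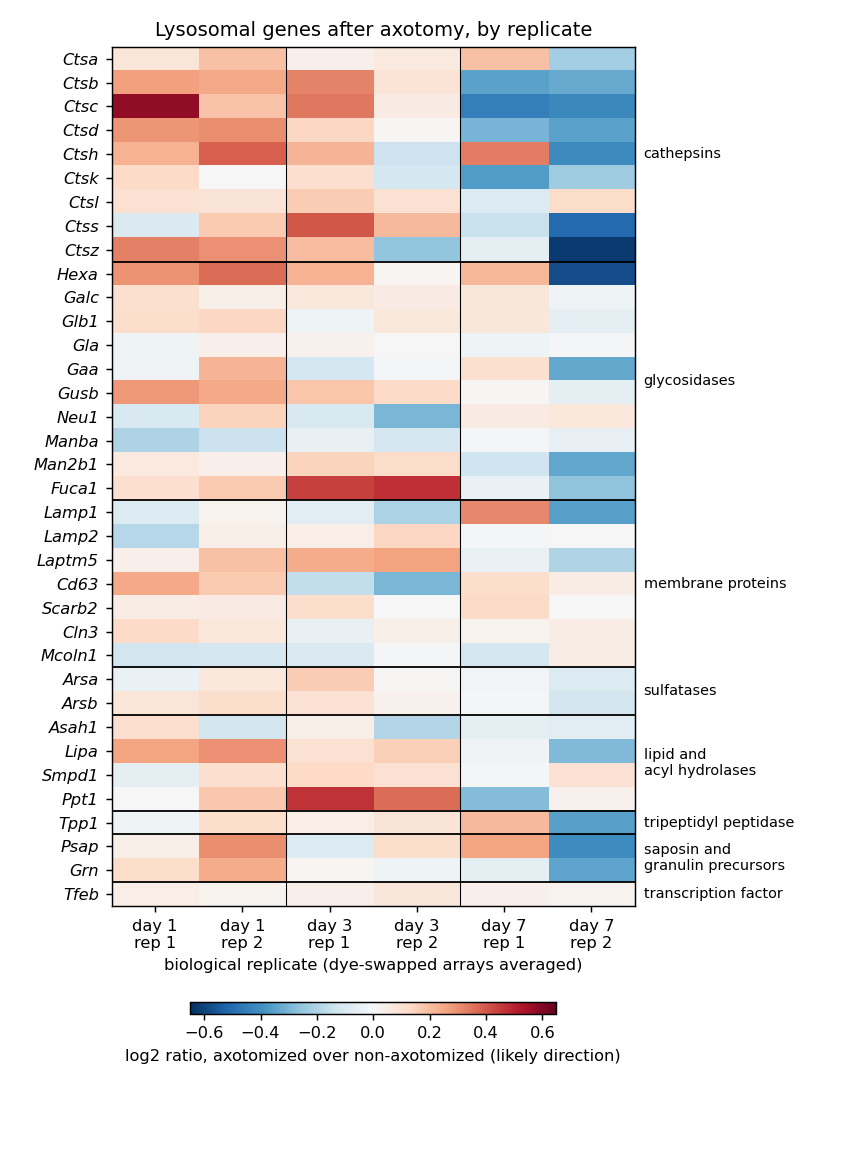
Log2 ratio of axotomized over non-axotomized co-cultures for the 36 measured lysosomal genes (rows, grouped by class) in each of the 6 biological replicates (columns, 2 per day). Red is above 0 and blue is below 0, and 9 of the 9 cathepsin means are above 0 at day 1 and 8 of the 9 below 0 at day 7. Of all 14871 genes, 8390 are above 0 at day 1 and 7105 below 0 at day 7.

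Few single lysosomal genes changed by the test, and the cathepsins were the class with the widest swing. In limma's fit across all genes with Benjamini-Hochberg adjustment, 1 of the 36 members rose at day 3, Fuca1, and 1 differed between days, Ctsd, which was lower at day 7 than at day 1. At day 1, 31 of 36 members had a mean ratio above 0, and the count was 25 at day 3 and 9 at day 7. Over all 14871 genes the counts at these days were 8390, 8004 and 7766. The median over the members was 0.09, 0.06 and -0.06 at the 3 days. Single replicates moved it: it was -0.16 at day 7 without replicate 1 and -0.01 without replicate 2, 0.04 and 0.10 at day 3, and 0.14 and 0.08 at day 1. The 9 cathepsins had a median of 0.26 at day 1, of 0.07 at day 3 and of -0.32 at day 7. The medians at these days were 0.08, 0.04 and -0.03 for the 10 glycosidases, and 0.05, -0.00 and -0.00 for the 7 membrane proteins. The difference between the classes was not tested.

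The background was low for the counts at an adjusted p and higher for those at an unadjusted p. Over all genes, 0.592% passed at an adjusted p under 0.05 at day 1, 1.03% at day 3 and 0% at day 7, against 0, 1 and 0 of the 36 members. Between days, 0.121% passed for day 7 minus day 1, 0.356% for day 7 minus day 3 and 0% for day 3 minus day 1, against 1, 0 and 0 members. At an unadjusted p under 0.05 in the same limma fit there were 11, 9 and 8 members at days 1, 3 and 7. These were 30.6%, 25% and 22.2% of the 36, against 13.2%, 14.4% and 9.37% of all genes. For day 7 minus day 1, day 7 minus day 3 and day 3 minus day 1 there were 13, 13 and 4. These were 36.1%, 36.1% and 11.1%, against 12.9%, 13% and 8.85% of all genes, and the last share was near the background.

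Ctsd encodes cathepsin D, the main aspartic protease of lysosomes. Its ratio was 0.28 and 0.30 in the replicates of day 1, 0.13 and 0.01 at day 3, and -0.30 and -0.35 at day 7. Both day 7 replicates lay below both of day 3 and both of day 1, and the groups did not overlap. Day 7 minus day 1 was -0.62 (SE 0.0587, adjusted p = 0.0486 in limma), which is 1.54-fold lower. Against day 3 the difference was -0.40, with an adjusted p of 0.0783. On its own, no day of Ctsd passed: the mean was -0.33 ± 0.03 at day 7 (adjusted p = 0.238) and 0.29 ± 0.01 at day 1 (adjusted p = 0.0642).

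The Ctsd call rests on values that differ strongly with the dye. At day 7 the arrays with axotomized RNA in Cy5 gave -0.59 and -0.64 and those with it in Cy3 gave -0.02 and -0.06. At day 1 the Cy5 arrays gave 0.07 and -0.25 and the Cy3 arrays 0.50 and 0.86. Day 7 thus lay below day 1 within either dye, with differences of -0.52 in Cy5 and -0.72 in Cy3, and neither difference passed alone (adjusted p = 0.121 and 0.174 in limma). Its 3 spots had means of -0.40, -0.19 and -0.39 at day 7 and of 0.31, 0.28 and 0.30 at day 1. At day 3 the same spots differed in sign, with means of -0.03, 0.27 and -0.03. Leaving out any 1 of the 6 replicates ended the call, while the difference stayed at -0.64 to -0.60. Each of these fits holds only 1 replicate of a day, so the loss cannot be laid to Ctsd alone.

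**Figure D2:**
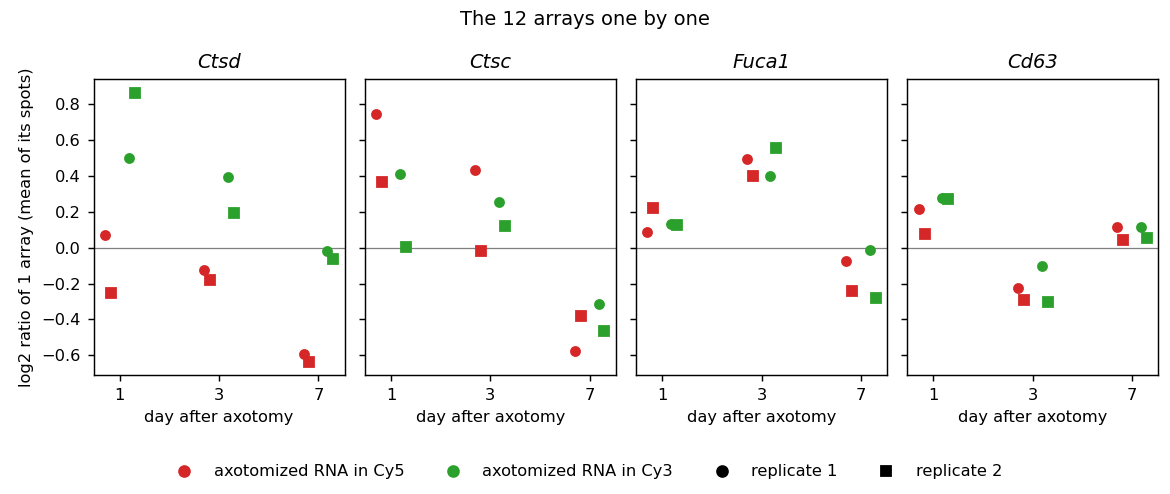
Log2 ratio of each of the 12 arrays for Ctsd, Ctsc, Fuca1 and Cd63 by day after axotomy, with the dye of the axotomized RNA by colour (red Cy5, green Cy3) and the biological replicate by shape (circle 1, square 2). The 4 Fuca1 arrays of day 3 lie together between 0.40 and 0.55, while the Ctsd arrays split by dye on every day.

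Ctsb and Ctsc, like Ctsd, had their lowest ratios at day 7, and neither passed. Ctsb encodes cathepsin B, an abundant cysteine protease, and its ratio was 0.27 and 0.25 at day 1, 0.32 and 0.09 at day 3, and -0.35 and -0.33 at day 7. The means of its 2 spots kept 1 sign on each day. They differed in size, with 0.34 and 0.07 at day 3 and -0.18 and -0.49 at day 7. The Ctsb difference at day 7 was -0.59 from day 1 and -0.54 from day 3 (adjusted p = 0.0806 and 0.0783 in limma). Ctsc encodes cathepsin C, a dipeptidyl peptidase that activates granule serine proteases. Its ratio was 0.57 and 0.18 at day 1, 0.34 and 0.05 at day 3, and -0.44 and -0.42 at day 7. The replicates of day 7 were close together and below both other days. The Ctsc difference of day 7 minus day 1, -0.81, was the largest among the members in size, but its replicates at day 1 were spread (0.38 ± 0.28) and its adjusted p was 0.121.

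The other cathepsins were more varied. Ctss, the cathepsin S gene, is expressed in brain mainly by microglia, and had its high point at day 3. Its ratio was -0.09 and 0.17 at day 1, 0.41 and 0.21 at day 3, and -0.14 and -0.51 at day 7, and day 7 minus day 3 was -0.63 (adjusted p = 0.157). Ctsk, a collagen-degrading cathepsin best known from osteoclasts, had 0.13 and 0.00 at day 1, 0.11 and -0.11 at day 3, and -0.36 and -0.23 at day 7. The day 7 replicates of Ctsk lay below those of either earlier day, with adjusted p-values of 0.2 against day 1 and 0.279 against day 3. Ctsz, a carboxypeptidase, had 0.33 and 0.30 at day 1, 0.20 and -0.26 at day 3, and -0.06 and -0.62 at day 7, so its day 1 replicates were tight and the later ones wide.

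Ctsh, Ctsa and Ctsl had means near 0 at day 7. Ctsh, an aminopeptidase, had 0.23 and 0.39 at day 1, 0.22 and -0.14 at day 3, and 0.33 and -0.42, of opposite sign, at day 7. Ctsa, the protective protein that stabilises beta-galactosidase and neuraminidase, had 0.08 and 0.19 at day 1, 0.03 and 0.06 at day 3, and 0.19 and -0.22 at day 7. Ctsl, a cysteine endopeptidase measured by 4 spots, had 0.10 and 0.09 at day 1, 0.17 and 0.10 at day 3, and -0.09 and 0.12 at day 7. The Ctsl spots ran from -0.13 to 0.17 at day 7.

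**Figure D3:**
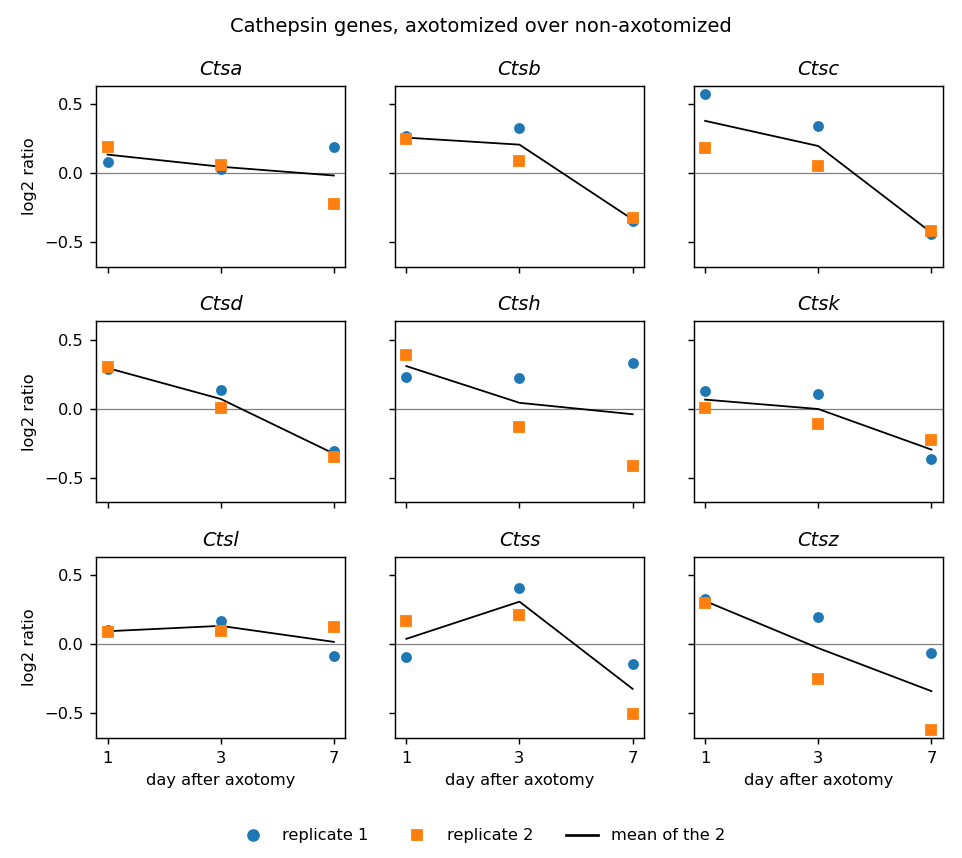
Log2 ratio of the 9 cathepsin genes at days 1, 3 and 7 after axotomy, with 1 marker per biological replicate (circle 1, square 2) and a line through the mean of the 2. Ctsb, Ctsc, Ctsd, Ctsk and Ctss have both replicates below 0 at day 7, and the Ctsa and Ctsh replicates stand on opposite sides of 0 there.

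Fuca1, encoding alpha-L-fucosidase, which removes fucose from glycoproteins and glycolipids, was the glycosidase that passed. Its ratio was 0.11 and 0.17 at day 1, 0.45 and 0.48 at day 3, and -0.04 and -0.26 at day 7. The 4 arrays of day 3 gave 0.49 and 0.40 in Cy5 and 0.40 and 0.55 in Cy3, and its 2 spots had means of 0.49 and 0.43, so dye and spot differed little. Fuca1 rose at day 3, to 0.46 ± 0.02, which is 1.38-fold (SE 0.0564, adjusted p = 0.0391 in limma). Both day 7 replicates lay below both of day 3, a difference of -0.61 (adjusted p = 0.0654). The day 3 call was lost when any 1 of the day 3 or day 1 replicates was left out, while the ratio stayed between 0.45 and 0.48. Each of those fits holds only 1 replicate of a day, so the loss cannot be laid to Fuca1 alone.

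The next glycosidases by the F test over days were Gusb, Manba and Man2b1. Gusb, the beta-glucuronidase gene, had 0.28 and 0.25 at day 1, 0.18 and 0.12 at day 3, and 0.01 and -0.06 at day 7, above 0 on all arrays of days 1 and 3. Its day 1 mean of 0.26 ± 0.02 had the smallest adjusted p of the members at that day, 0.061. Man2b1, lysosomal alpha-mannosidase, had 0.06 and 0.03 at day 1, 0.15 and 0.12 at day 3, and -0.13 and -0.34 at day 7. Manba, the beta-mannosidase gene, ran the other way: -0.20 and -0.14 at day 1, -0.05 and -0.11 at day 3, and -0.01 and -0.05 at day 7. It was the member with all 4 arrays of day 1 below 0 and the one whose day 7 replicates both lay above those of day 1.

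Of the remaining glycosidases, Hexa, the alpha subunit of beta-hexosaminidase, had 0.29 and 0.37 at day 1, 0.23 and 0.01 at day 3, and 0.22 and -0.58 at day 7. Neu1, the sialidase gene, had -0.10 and 0.15 at day 1, -0.10 and -0.30 at day 3, and 0.05 and 0.07 at day 7, below 0 on all arrays of day 3 and above 0 on all arrays of day 7. Galc, encoding galactocerebrosidase, which degrades myelin galactolipids, had 0.10 and 0.04 at day 1, 0.07 and 0.05 at day 3, and 0.07 and -0.03 at day 7, above 0 on all 4 arrays of day 3. Gla, alpha-galactosidase A, stayed between -0.03 and 0.03. Glb1, beta-galactosidase, lay between -0.06 and 0.14, and Gaa, acid alpha-glucosidase, between -0.33 and 0.22.

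None of the 7 membrane proteins passed the test in limma, and 2, 2 and 0 of them had an unadjusted p under 0.05 at days 1, 3 and 7. Over all genes the share with such a p was 13.2%, 14.4% and 9.37% at these days. Cd63 and Laptm5 had the smallest F-test p, and their values at day 3 lay on opposite sides of 0. Cd63, a tetraspanin of late endosomes and lysosomes, had 0.25 and 0.17 at day 1, -0.16 and -0.30 at day 3, and 0.12 and 0.05 at day 7. It was above 0 on all 4 arrays at day 1, below 0 on all 4 at day 3 and above 0 on all 4 at day 7. Day 3 minus day 1 was -0.44, and its adjusted p of 0.15 was the smallest among the members for that difference. At day 7 its 2 spots had means of -0.14 and 0.30. Laptm5, a lysosomal protein of blood-derived cells and microglia, had 0.03 and 0.19 at day 1, 0.24 and 0.26 at day 3, its high point (adjusted p = 0.121), and -0.04 and -0.19 at day 7. Its 2 spots had means of 0.45 and 0.06 at day 3.

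The other membrane proteins had mean ratios nearer to 0, and none of them passed in the 6 comparisons. Lamp1 had -0.09 and 0.03 at day 1, -0.07 and -0.21 at day 3, and 0.31 and -0.35 at day 7. Lamp2, which also serves chaperone-mediated autophagy, had -0.19 and 0.04 at day 1, 0.04 and 0.13 at day 3, and -0.01 and 0.00 at day 7, above 0 on all 4 arrays of day 3. Scarb2, which carries glucocerebrosidase to lysosomes, stayed between -0.00 and 0.12 in all replicates. Cln3, whose loss causes juvenile neuronal ceroid lipofuscinosis, had 0.12 and 0.07 at day 1, -0.05 and 0.04 at day 3, and 0.02 and 0.05 at day 7, above 0 on all 4 arrays of day 1. Mcoln1, a calcium channel, had -0.12 and -0.11 at day 1, -0.10 and -0.01 at day 3, and -0.12 and 0.05 at day 7.

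Among the lipid and acyl hydrolases, Ppt1 had the highest ratio after Fuca1 at day 3. Ppt1, palmitoyl-protein thioesterase, had -0.00 and 0.18 at day 1, 0.47 and 0.36 at day 3, and -0.28 and 0.03 at day 7, above 0 on all 4 arrays of day 3 with an adjusted p of 0.103. Lipa, the acid lipase that frees cholesterol from its esters, had 0.26 and 0.30 at day 1, 0.10 and 0.16 at day 3, and -0.02 and -0.29 at day 7. The days of Lipa did not overlap from one to the next, and its day 7 minus day 1 of -0.43 had an adjusted p of 0.146. Asah1, acid ceramidase, had 0.11 and -0.12, 0.04 and -0.19, and -0.06 and -0.07 at days 1, 3 and 7, below 0 on all 4 arrays of day 7. Smpd1, acid sphingomyelinase, had -0.06 and 0.11, 0.13 and 0.10, and -0.01 and 0.09 at those days.

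Neither of the 2 sulfatases passed. Arsa, which degrades the myelin lipid sulfatide, had -0.04 and 0.07 at day 1, 0.17 and 0.01 at day 3, and -0.02 and -0.09 at day 7, above 0 on all 4 arrays of day 3. Its 3 spots had means from -0.07 to 0.31 at day 3. Arsb, which degrades dermatan sulfate, had 0.08 and 0.11, 0.09 and 0.03, and -0.01 and -0.12 at days 1, 3 and 7. Grn, the progranulin gene, had 0.12 and 0.24 at day 1, 0.01 and -0.03 at day 3, and -0.06 and -0.34 at day 7. Psap, the precursor of the saposins that present lipids to the hydrolases, had 0.04 and 0.30, -0.09 and 0.11, and 0.26 and -0.41 at the 3 days. Tpp1, a serine protease, had -0.03 and 0.12, 0.04 and 0.08, and 0.21 and -0.35 at days 1, 3 and 7. Tfeb itself lay between 0.02 and 0.07 in all 6 replicates, but 2 of its 4 arrays were above 0 on each day, with Cy5 arrays below 0 and Cy3 arrays above it.

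Read across the members, day 7 stood apart in sign and in separation from the earlier days. At day 7, 8 members were below 0 on all 4 arrays (Asah1, Ctsb, Ctsc, Ctsd, Ctsk, Ctss, Fuca1 and Man2b1, 5 of them cathepsins), against 8.18% of all genes, and 2 were above 0 on all 4 (Cd63 and Neu1), against 9.24%. These signs are of means over spots, and single spots differed. At day 7 the Asah1 spots ran from -0.17 to 0.01 and the Cd63 spots from -0.14 to 0.30. A Ctsb spot and a Man2b1 spot were each above 0 on 2 arrays of that day, and each of the 3 Ctsd spots on 1. A Fuca1 spot was also above 0 on 1 array of day 7, and a Neu1 spot was above 0 on only 3 of the 4. At day 1, 9 were above 0 on all 4 arrays, against 11.1% of all genes, and 1 was below, against 7.56%. At day 3, 9 were above and 2 below, against 12.6% and 10.4%. The 8 members below 0 at day 7 were 22.2% of the 36, and the 9 above 0 at days 1 and 3 were 25% on each day.

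Replicate values of day 7 lay below both of day 1 in 17 members (47.2%), against 24.9% of all genes, and above them in 1, against 21.2%. They lay below both of day 3 in 17, against 21.9%, and above them in 2 (Cd63 and Neu1), against 20.9%. These counts share the day 7 replicates. Day 3 lay above day 1 in 8 members, against 17.1% of all genes, and below it in 12, against 20.7%. Of the cathepsins, 6 of 9 lay lower at day 7 than at day 1, with 5 of 10 glycosidases and 3 of 7 membrane proteins.

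**Figure D4:**
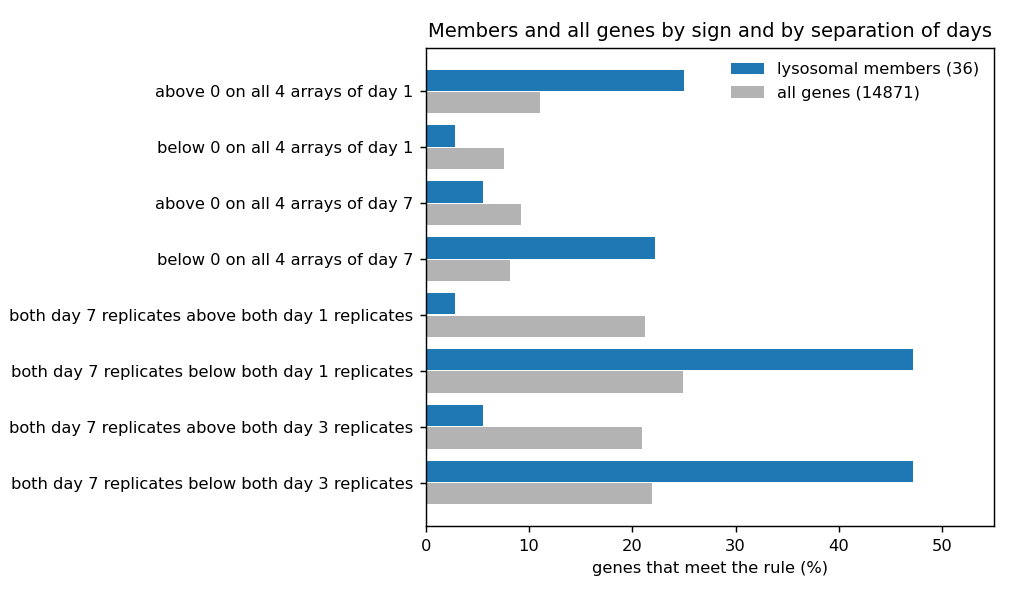
Share of the 36 lysosomal members (blue) and of all 14871 genes (grey) that lie on 1 side of 0 on all 4 arrays of day 1 or day 7, or whose day 7 replicates both lie above or below both replicates of an earlier day. Lower day 7 values take up 47.2% of the members against 24.9% of all genes for day 1 and 21.9% for day 3.

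At day 7, 16 members (44.4%) had replicates of opposite sign, against 40.9% of all genes, a share near the background. In 11 of them (30.6% of the 36) replicate 1 was above 0 and replicate 2 below it, against 24.4%. At days 1 and 3, 11 and 10 members (30.6% and 27.8%) had opposite signs, against 38.6% and 42% of all genes. The 11 members with replicate 1 above 0 at day 7 were Ctsa, Ctsh, Gaa, Galc, Glb1, Gusb, Hexa, Lamp1, Psap, Scarb2 and Tpp1. For Lamp1 the arrays of replicate 1 gave 0.27 in Cy5 and 0.35 in Cy3, and those of replicate 2 gave -0.36 and -0.35, so the 2 dyes gave 1 sign within a replicate. Psap did the same, with 0.20 and 0.32 in replicate 1 and -0.32 and -0.50 in replicate 2. Across the 36 members, which share their arrays, Pearson's r between the replicates came to 0.58, 0.61 and -0.03 at days 1, 3 and 7, and across all genes to 0.48, 0.40 and 0.29. Across all genes, r between the 2 dye-swapped arrays was 0.33 and -0.08 for replicates 1 and 2 of day 1. At day 3 it was 0.34 and 0.47, and at day 7 it was 0.09 and 0.23.

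Markers of microglia and macrophages, 15 genes measured, had their lowest median at day 7 too. Their median ratios were 0.21, 0.23 and -0.12 at days 1, 3 and 7, and 14, 15 and 2 of the 15 were above 0. Of all 14871 genes, 8390, 8004 and 7766 were above 0 at these days. At day 7 the 15 markers ranged from -0.43 (the complement gene C1qa) to 0.10 (Aif1). Cd68, a lysosomal protein of phagocytes that is also among these markers, had 0.03 and 0.17 at day 1, 0.24 and 0.05 at day 3, and -0.27 and -0.49 at day 7. No summed level could be given, since the table holds ratios only, and the part of these cells in the lysosomal values was not tested. Oligodendrocyte markers had medians of -0.02, 0.29 and 0.39 and astrocyte markers of 0.01, 0.28 and 0.03. The medians were -0.04, 0.08 and 0.14 for neuronal, 0.00, 0.03 and 0.01 for endothelial and 0.02, 0.16 and -0.02 for fibroblast markers.

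The day 1 values of the members differed with the dye. The median of the 36 members at day 1 was -0.02 over the arrays with axotomized RNA in Cy5 and 0.17 over those with it in Cy3, while at day 7 it was -0.07 and -0.04. For the cathepsins the day 1 medians were 0.06 and 0.20, and the day 7 medians -0.27 and -0.19. The cathepsin medians therefore lay lower at day 7 than at day 1 within either dye.

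**Figure D5:**
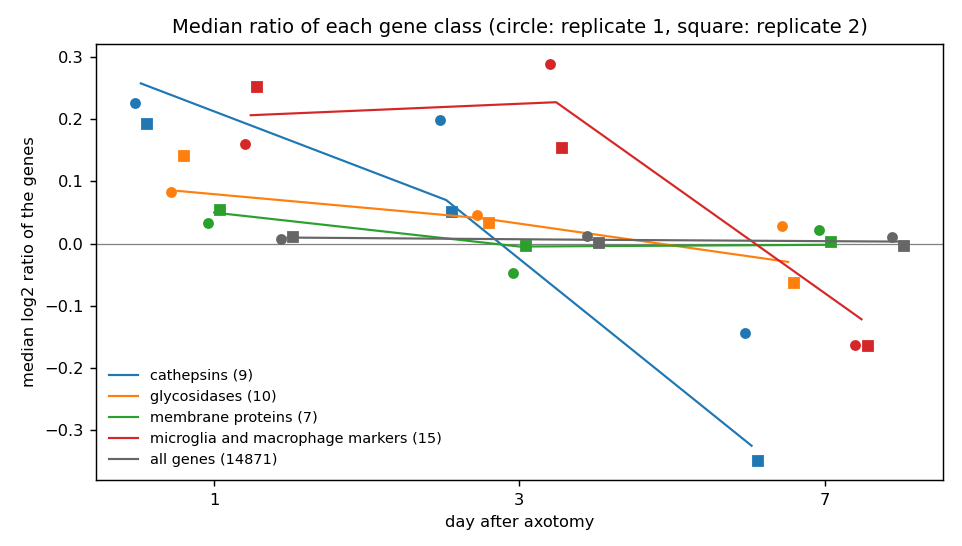
Median log2 ratio of axotomized over non-axotomized co-cultures over the genes of each class at days 1, 3 and 7, with lines through the medians of the gene means and markers for the medians within each biological replicate (circle 1, square 2). Cathepsins and microglia and macrophage markers lie above 0 at day 1 and below it at day 7, and the median of all genes stays at 0.01 or less.

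A wider list of 68 other measured lysosomal and autophagy genes showed no call in any of the 6 comparisons in limma, and 6, 12 and 12 of them had an unadjusted p under 0.05 at days 1, 3 and 7. These were 8.82%, 17.6% and 17.6% of the list, against 13.2%, 14.4% and 9.37% of all genes. For day 3 minus day 1, day 7 minus day 1 and day 7 minus day 3 there were 10, 16 and 15 (14.7%, 23.5% and 22.1%), against 8.85%, 12.9% and 13% of all genes. Its median was 0.02, -0.01 and -0.00 at the 3 days. Within it, 14 further hydrolases and cofactors had medians of 0.07, 0.04 and -0.09, and 17 subunits of the proton pump had 0.02, -0.03 and 0.04. Atp6v1c1 and Atp6ap2, of the proton pump that acidifies lysosomes, had their high point at day 7. Atp6v1c1 had 0.22 and 0.19 at day 7, against -0.20 and -0.21 at day 3, a difference with an adjusted p of 0.0614. Atp6ap2 had 0.23 and 0.21 at day 7, against -0.28 and -0.12 at day 3. Acp5, tartrate-resistant acid phosphatase, had -0.42 and -0.31 at day 7, against 0.29 and 0.05 at day 1. Sqstm1, an autophagy receptor gene, had -0.23 and -0.26 at day 3, with an adjusted p of 0.074.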

How the data were processed

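RNA of 12 arrays was analysed as 6 biological replicates, 2 for each of days 1, 3 and 7. The values deposited by the authors are log2 channel ratios of 44290 spots, complete in every column. They were made with limma, per the submitters' processing notes; its version, the background correction and the normalization are not stated, and base 2 was assumed. Column medians ran from -0.022 to 0.027, which is close to centred. On 733 spots the ratio turned with the dyes, and 731 of these have no listed gene. Their medians were -4.26 with axotomized RNA in Cy5 and 3.81 in Cy3, so the columns run in 1 RNA direction. That direction is not stated.

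Spots with exactly 1 gene symbol (23535) were averaged per gene, then over the dye swap. limma 3.58.1 (R 4.3.3) was fitted to the 6 values of each gene with 1 coefficient per day (two-sided, Benjamini-Hochberg over 14871 genes, adjusted p under 0.05), with 3 residual degrees of freedom and a prior worth 2.72. The members and lists were chosen with earlier results of these data known. Members are described in full where they passed, where they were among the 4 smallest F-test p of their class, or where all 4 arrays of a day shared a sign. In simulated data with the spread of these genes, 81% of day 3 changes of 0.5 and 96% of changes of 1 were recovered, with 13 false among 190 calls. Differences between days were not simulated. Alternatives were another spot summary and normalization, single arrays in a random block, single dyes, a replicate block and leaving out replicates. Depth has no meaning for arrays, and their number limits the precision. 1 Galc spot carries a gene identifier absent from the rat RefSeq table used. Figures were drawn with matplotlib 3.10.9.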

Additional observations from a re-analysis of the deposited data

Results flagged for a closer look

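Ctsd was picked out because its response differed between times by a test of the difference itself: day 7 minus day 1 was -0.62 on the log2 scale (SE 0.0587, adjusted p = 0.0486 in limma), with both replicates below 0 at day 7 and both above 0 at day 1.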

How the results depend on the processing

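Fuca1 at day 3 kept its direction in the 15 alternatives run, at 0.44 to 0.58, and passed in 7 of them. Among these were both random-block fits, where the dye-swapped arrays of a replicate enter as separate values, and the fits without a day 7 replicate. The adjusted p in limma was 8.7e-05 in the random block without a dye term and 0.121 with only the days compared. Ctsd for day 7 minus day 1 kept its direction in all 15, at -0.72 to -0.49, and passed in 2. These were median centring and the random block with a dye term (adjusted p = 0.0485 and 0.0143 in limma). With axotomized RNA in Cy3 only its adjusted p was 0.174. Counts of members past the threshold moved as follows, and the cause was not tested. With the 12 arrays in a random block they were 5 at day 1, 6 at day 3, 1 at day 7, 2 for day 3 minus day 1, 5 for day 7 minus day 1 and 9 for day 7 minus day 3, while 720, 1064, 288, 389, 868 and 917 of all 14871 genes passed, against 88, 153, 0, 0, 18 and 53 with the replicates averaged. With a dye term added they were 2, 5, 1, 2, 7 and 9 in the same order, and 594, 958, 194, 290, 726 and 832 over all genes. With axotomized RNA in Cy5 only the count was 1 at day 1, with 654 over all genes, and 0 for day 7 minus day 1, with 64. With it in Cy3 only, with quantile normalization, with a replicate block or with only the days compared, the counts at day 3 and for day 7 minus day 1 were 0. In that order, 125, 75, 66 and 0 of all genes passed at day 3. For day 7 minus day 1 the numbers over all genes were 2, 92, 11 and 0. With only the days compared no gene passed, so the 0 there is not particular to the members. The median of the spots also gave 0 members for day 7 minus day 1, with 19 over all genes. Leaving out 1 replicate left Fuca1 at day 3 at 0.45 to 0.48. Ctsd for day 7 minus day 1 then stood at -0.64 to -0.60. Counts are not given for these fits, each of which holds only 1 replicate for the day of the replicate left out. Under the replicate block the adjusted p was 0.0641 for Fuca1 and 0.062 for Ctsd. No label says that a replicate number marks a shared culture or batch across days. Across genes, r of replicate 1 minus replicate 2 was 0.26 between days 1 and 3. It was -0.07 between days 1 and 7 and 0.01 between days 3 and 7. Whether the numbers pair the samples was not tested. The median of the members at day 1 was -0.02 with Cy5 only and 0.17 with Cy3 only.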
